A study of Homo sapiens with 7 samples.

Results

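The loci of 8 transcription factors were examined in a list of GATA6 binding sites from LS174T cells, a long-established line of human colorectal carcinoma. The factors were GATA6 itself, the GATA family members GATA4, GATA5, GATA2 and GATA3, and the forkhead factors FOXA1, FOXA2 and FOXA3. A window was laid around each gene on the hg19 build, and every GATA6 peak with its summit in the window was taken as a member. Together the windows spanned 2.09 Mb and held 19 of the 7568 deposited peaks (0.251%). The 5 GATA windows held 13 of them and the 3 FOXA windows held 6. Per the labels, the series comprised 3 GATA6 ChIP libraries, 1 library each for H3K27ac, H3K4me3 and H3K4me1, and 1 input library made without an antibody. All came from LS174T cells that were grown in medium with 10% serum and fixed with 1% formaldehyde for 15 min, and the labels name no treatment or genetic change in any group. The 3 histone modification libraries and the input library were not analysed here.

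GATA factors are zinc-finger proteins that bind DNA at a core GATA sequence. GATA4, GATA5 and GATA6 are known from the heart and from endoderm-derived tissues such as the gut, whereas GATA2 and GATA3 are best known from blood-forming cells, T cells and several epithelia. FOXA factors are winged-helix proteins of the endoderm that can bind their sites in closed chromatin, and they often occupy regulatory DNA near GATA sites. Many such factors bind near their own genes and near each other's genes. Whether GATA6 does so in LS174T cells is the question that the windows address.

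RefSeq promoter windows, from 250 bases before to 50 bases after a gene's start on the GRCh38.p14 build, were available for 5 of the 8 genes (GATA6, GATA2, GATA3, FOXA1 and FOXA3). Those of GATA6, FOXA1, FOXA3 and GATA2 are shown. They are the gene whose own protein was precipitated and the FOXA gene whose window held the highest peak. The others are the gene whose window held the peak nearest its midpoint, and the gene whose window held no peak. Capitals mark matches, on either strand, to the GATA motif AGATAA, to its forms TGATAA, then AGATAG, then TGATAG, or to the FOXA motif TGTTTAC with its form TGTTTGC. The windows lie at chr18:22169339-22169638 (plus strand, GATA6), chr14:37595200-37595499 (minus strand, FOXA1), chr19:45864076-45864375 (plus strand, FOXA3) and chr3:128493152-128493451 (minus strand, the first of 2 GATA2 starts).
GATA6: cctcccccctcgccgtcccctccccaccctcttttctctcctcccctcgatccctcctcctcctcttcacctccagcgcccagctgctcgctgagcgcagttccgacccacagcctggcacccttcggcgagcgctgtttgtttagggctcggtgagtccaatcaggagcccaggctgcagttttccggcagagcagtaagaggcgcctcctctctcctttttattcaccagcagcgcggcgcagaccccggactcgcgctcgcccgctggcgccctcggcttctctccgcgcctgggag
FOXA1: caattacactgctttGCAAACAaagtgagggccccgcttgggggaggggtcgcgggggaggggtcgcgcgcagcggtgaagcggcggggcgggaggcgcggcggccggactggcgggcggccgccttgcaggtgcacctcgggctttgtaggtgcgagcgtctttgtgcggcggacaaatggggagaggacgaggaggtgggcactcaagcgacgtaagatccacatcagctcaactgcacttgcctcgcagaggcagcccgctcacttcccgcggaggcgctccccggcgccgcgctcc
FOXA3: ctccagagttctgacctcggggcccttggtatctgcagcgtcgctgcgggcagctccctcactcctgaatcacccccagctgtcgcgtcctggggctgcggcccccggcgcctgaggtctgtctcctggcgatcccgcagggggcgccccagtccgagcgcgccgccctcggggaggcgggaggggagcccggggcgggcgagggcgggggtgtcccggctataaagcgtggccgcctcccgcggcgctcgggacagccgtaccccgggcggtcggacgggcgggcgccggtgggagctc
GATA2: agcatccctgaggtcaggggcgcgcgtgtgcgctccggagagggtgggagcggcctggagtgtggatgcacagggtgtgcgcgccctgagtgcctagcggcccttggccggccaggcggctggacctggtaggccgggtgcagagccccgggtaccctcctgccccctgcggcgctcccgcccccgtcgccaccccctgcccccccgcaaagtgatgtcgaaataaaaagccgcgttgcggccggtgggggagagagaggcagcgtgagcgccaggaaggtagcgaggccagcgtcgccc

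The GATA6 promoter window held none of the 4 GATA motifs and neither FOXA motif. A GATA motif was found in 0 of the 11 promoter windows of these 5 genes, of which 6 belong to GATA3 and 2 to GATA2, against 25% of all 35116 RefSeq promoter windows of that length. A FOXA motif was found in 2 of the 11 (7.17% of all promoter windows). In FOXA1 the match was TGTTTGC on the opposite strand, which reads GCAAACA above, with its first printed base at −235. In GATA3 it was TGTTTGC on the printed strand, in the first of 6 starts, with its first base at −138. The matches did not overlap one another. Positions are counted from the gene's start. G and C made up 54.3 to 76.3% of the bases of the 11 windows. The shares over all promoter windows were not matched for base content. The promoter windows are on a later build than the peaks, so whether a peak covered any of them was not determined, and a missing match says only that these letters are absent.

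Peaks were found in 7 of the 8 windows, and the GATA2 window was the 1 without. As a background, windows of the same sizes were laid end to end from the first to the last summit of chromosomes 1 to 22 and X. At least 1 peak lay in 53.7% of the 5788 windows of 500 kb, the size of the GATA6 window. The share was 39.2% for 290 kb (GATA4), 33.4% for 230 kb (GATA3), 32.4% for 220 kb (FOXA1 and FOXA3) and 31.4% for 210 kb (GATA5, GATA2 and FOXA2). With windows 0.5 times as large around the same midpoints 9 peaks were counted, and 11 of the 19 reached the list's median −log10 q of 9.24. Added over the 8 windows of full size, these shares came to 2.85 occupied windows, against the 7 counted. The density was 9.09 peaks per Mb in the 8 windows, 2.06 per Mb in the 2 Mb to either side of each, and 2.60 per Mb over the spans of the list. The laid windows also cover assembly gaps and regions without genes. Gaps and chromosome ends were not left out of the 2 Mb stretches beside the members' windows either. Windows around other genes were not compared, since no hg19 annotation was used, and the members were proposed with results of these data known.

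**Figure D1:**
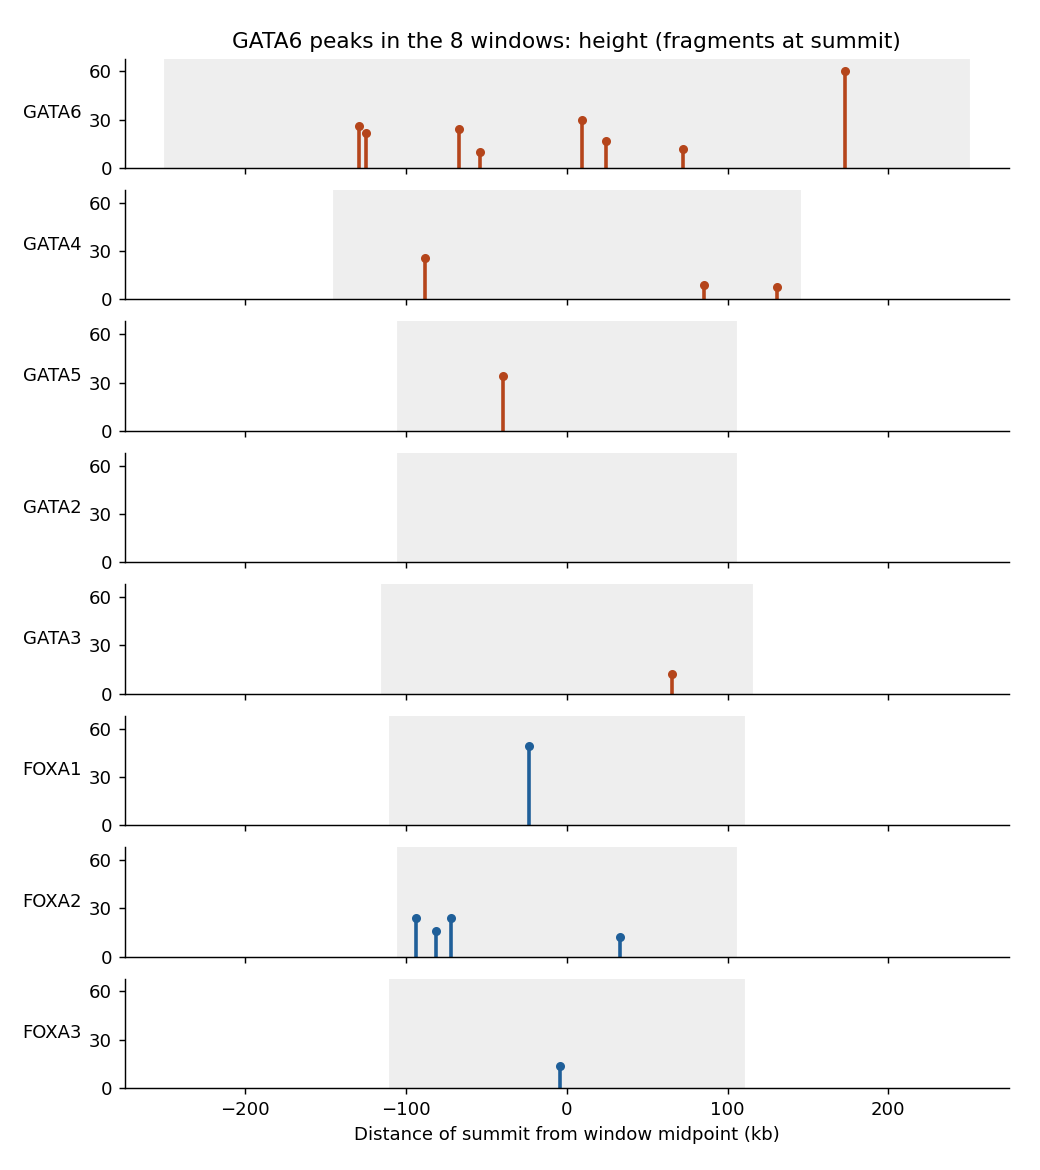
Each panel is a window, with GATA windows in red and FOXA windows in blue. The x axis is the distance of a summit from the window's midpoint in kb, the grey area is the window, and each stem is a GATA6 peak with its height in fragments on the y axis. The GATA6 panel holds 8 peaks and the GATA2 panel none.

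The heights of the 19 peaks ranged from 8 to 60 fragments with a median of 22, against a median of 16 in the other 7549 peaks of the list. The height is the pileup of the authors' file, read here as the number of fragments stacked at the summit. A height of at least 23, the upper quartile of the list, was reached by 9 of the 19 peaks (47.4%) and by 25.1% of all peaks. The fold is the authors' fold enrichment, read here as the ratio of the height to a local background level. It was at least 20 in 6 of the 19 (31.6%) and in 25.5% of all peaks. It was at least 10 in 16 of the 19 (84.2%) and in 76.5% of all peaks, so the shares by fold lay closer to the background than the share by height. The median height was 23 for the 8 peaks of the GATA6 window and 16 for the 11 peaks of the other windows, and the list median was 16 as well, so without the GATA6 window the members' median did not exceed it. By median fold the order was the other way, with 13.8 in the GATA6 window, 18.6 in the other windows and 14 in the list. Peaks of 1 window share a locus and are not replicates, so no test was made. The list holds no value per library, so replicate error could not be given for any value, and library depth is unknown.

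**Figure D2:**
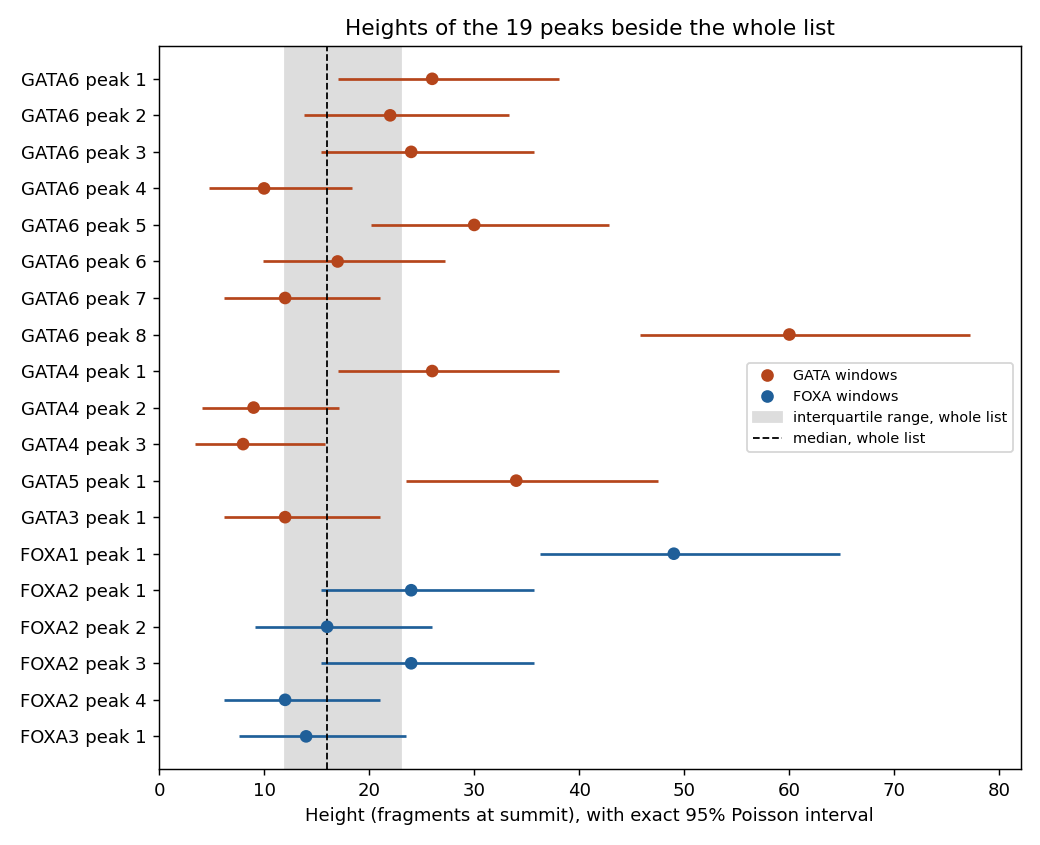
Points are the heights of the 19 peaks in fragments, numbered within each window by rising position, and lines are exact 95% Poisson intervals. The grey band is the interquartile range of the whole list (12 to 23) and the dashed line its median of 16; GATA6 peak 8 (60) and FOXA1 peak 1 (49) stand farthest to the right.

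The window around the GATA6 gene itself, which was the largest, held more GATA6 peaks than any of the other 7. Laid on chromosome 18 from 19500000 to 20000000, it held 8 peaks with a summed height of 201 fragments. At least 8 peaks lay in 77 of the 5788 windows of that size, or 1.33% (exact 95% binomial interval 1.05 to 1.66), and a summed height of at least 201 in 0.605%. With a window 0.5 times as large 5 of the 8 peaks were counted, and 5 reached the list's median −log10 q. At least 5 peaks that reached this median lay in 1.23% of windows of 500 kb. The GATA6 locus itself was not left out of the background. Neighbouring windows are not independent, and these intervals and those of heights cover counting error only, since amplified fragments are not independent molecules. By gene order in RefSeq on GRCh38.p14, the nearest protein-coding genes were MIB1 on the lower side of GATA6 and CTAGE1 on the higher side. MIB1 encodes a ubiquitin ligase of Notch signalling. Peaks in this and the other windows could not be assigned to one gene. A peak said to be at a gene is a peak in that gene's window.

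The highest GATA6 peak of the locus was far from the middle of the window. It lay on chromosome 18 from 19922650 to 19922996, with its summit 173 kb above the midpoint. Its height was 60 fragments (95% Poisson interval 45.8 to 77.2), 68.73 times its local background, with a −log10 q of 81.73. It ranked 2 in height among the 153 peaks of chromosome 18 and 37 in −log10 p in the whole list, where 1.02% of peaks were as high. The nearest other summit was 90.0 kb away, and the peak made up 29.9% of the summed height of the window.

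Nearest the midpoint was a peak from 19759187 to 19759553, with its summit 9.46 kb above. This peak had a height of 30 (20.2 to 42.8) with a fold of 13.22. Its interval did not overlap that of the highest peak. A further 14.8 kb up, a peak from 19774144 to 19774417 had a height of 17 (9.90 to 27.2) with a fold of 12.17.

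Below the midpoint, a pair of summits lay 3.88 kb apart, the closest spacing among the 19 peaks. The peak from 19620414 to 19620810 had a height of 26 (17 to 38.1) with a fold of 13.03. Its neighbour from 19624336 to 19624660 had a similar height of 22 (13.8 to 33.3), but its fold was 5.51, the lowest of the 19. The local background at that neighbour was 3.99 fragments, the highest of the 19, against a list median of 1.05. In the list, 97.1% of peaks had a fold as large. Whether raised background signal contributed to this peak was not tested.

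The peak from 19682944 to 19683232 reached a height of 24 (15.4 to 35.7) at a fold of 19.64. The remaining 2 peaks of the window, 54.3 kb below and 72.0 kb above the midpoint, had heights of 10 and 12 and folds of 14.32 and 15.27. In all, 4 peaks lay on each side of the midpoint. Outside the window, the surroundings were uneven. In the 2 Mb below there was no peak, and the nearest summit was 4593 kb away, whereas the 2 Mb above held 9 peaks. The first of those, with a height of 14, lay 12.8 kb past the edge. Assembly gaps were not located, so how much of the stretch below the window could hold a peak is unknown.

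**Figure D3:**
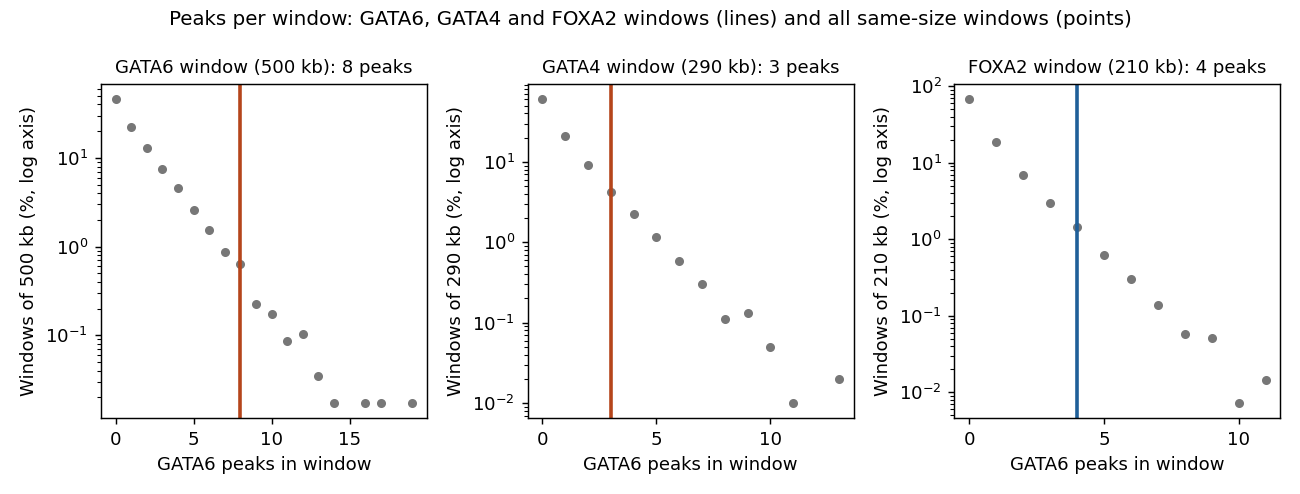
Grey points give the share of all same-size windows, on a log axis, that hold each number of GATA6 peaks, for windows of 500 kb, 290 kb and 210 kb. Coloured lines mark the GATA6 window (8 peaks), the GATA4 window (3 peaks) and the FOXA2 window (4 peaks), and shares of windows with at least as many peaks are 1.33%, 8.79% and 2.67%.

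The windows of GATA4 and GATA5, the close relatives of GATA6, each held 1 peak above the list's upper quartile in height. The GATA4 window, on chromosome 8 from 11430000 to 11720000, held 3 peaks. At least 3 lay in 8.79% of windows of 290 kb. A window 0.5 times as large held 0, and background windows of that size were not laid. Among background windows of 210 kb, 68.6% held no peak. The peak from 11486301 to 11486587 had a height of 26 (17 to 38.1) at a fold of 49.64, and 1.73% of the list had a fold as large. It had the same height as the GATA6-window peak at 19620414, but a local background of 0.524 fragments in place of 2, and so a larger fold.

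The other peaks of the GATA4 window were low. The peak from 11659952 to 11660126 had a height of 9 (4.12 to 17.1) with a fold of 10.74, and the peak from 11705817 to 11706004 had a height of 8 (3.45 to 15.8) with a fold of 15.27. The second of these was the lowest of the 19, and 98.0% of the list was as high. It was also near the limit of the window, 14.1 kb inside the edge. The nearest protein-coding neighbours of GATA4 in RefSeq were BLK, a kinase gene of B cells, and NEIL2, a DNA repair gene.

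The GATA5 window, on chromosome 20 from 60940000 to 61150000, held 1 peak from 61005326 to 61005599. Its height was 34 (23.5 to 47.5) and its fold was 34.08, and 9.66% of the list was as high. This peak stood alone: the nearest other summit was 1630 kb away, the greatest such distance among the 19. The density in the 2 Mb to either side of the window was 0.750 peaks per Mb, against 2.23 over chromosome 20. Both sides were counted as a full 2 Mb, with no allowance for the chromosome's end. RefSeq places RBBP8NL and SLCO4A1, an organic anion transporter gene, on either side of GATA5.

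The GATA2 window held no GATA6 peak of the list, and the GATA3 window held 1 low peak. The GATA2 window, on chromosome 3 from 128100000 to 128310000, held 0 peaks, as did 68.6% of windows of 210 kb. The nearest summits were 790 kb below the window, with a height of 16, and 464 kb above it, with a height of 13. The surroundings were also sparse, with 3 peaks in all within 2 Mb of either edge. A list holds only regions that passed the authors' threshold, so weaker binding at GATA2 was not measured.

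The GATA3 window, on chromosome 10 from 7990000 to 8220000, held 1 peak from 8170630 to 8170804. Its height was 12 (6.20 to 21.0) and its fold was 7.64, and 76.8% of the list was as high. Its width of 175 bp was the smallest in the list, as was that of 1 peak at GATA4. The nearest summits outside the window were 130 kb below it, with a height of 29, and 188 kb above it, with a height of 11. Within 2 Mb of either edge 9 peaks were counted in all. In RefSeq, TAF3 is the nearest protein-coding gene on the lower side of GATA3, and CELF2, an RNA-binding protein gene, on the higher side.

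The FOXA1 window held the second highest peak of the 19. This window, on chromosome 14 from 37950000 to 38170000, held 1 peak from 38036204 to 38036676. The height was 49 (36.3 to 64.8), the fold was 49.12 and the −log10 q was 59.53. It ranked 6 in height among 240 peaks of chromosome 14, and 2.67% of the list was as high. At 473 bp it was also the widest of the 19. The intervals of this peak and of the highest peak at GATA6 overlapped, so their order in height was not resolved. A highest peak of at least 49 was found in 1.44% of windows of 220 kb. FOXA1 lies between MIPOL1 and TTC6 in RefSeq, and the summit of the peak was 23.6 kb below the midpoint.

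The FOXA2 window held 4 GATA6 peaks, most of them on one side. Laid on chromosome 20 from 22460000 to 22670000, it had 19 peaks per Mb, against 16 per Mb at GATA6. In windows 0.5 times as large this order turned round, with 9.52 per Mb at FOXA2 (1 peak) and 20 per Mb at GATA6 (5 peaks). At least 4 peaks were found in 2.67% of windows of 210 kb. Of these peaks, 3 gathered on the lower side, 71.8 to 94.1 kb from the midpoint. The peaks from 22470722 to 22471018 and from 22492983 to 22493425 had equal heights of 24 (15.4 to 35.7), at folds of 24.06 and 33.53. Between them, a peak from 22483598 to 22483794 had a height of 16 (9.15 to 26.0) with a fold of 15.27.

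The remaining FOXA2 peak, from 22597930 to 22598113, had a height of 12 (6.20 to 21.0) at a fold of 18.58. The heights of all 4 peaks had overlapping intervals. The first peak of the group lay 10.9 kb inside the edge of the window, and the nearest summit outside, with a height of 17, was 67.6 kb past it. Above the window, the nearest summit was 2311 kb past the edge. RefSeq places PAX1, a paired-box factor gene, on the lower side of FOXA2.

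The FOXA3 window held the peak closest to a midpoint, but a weak one. The window, on chromosome 19 from 46260000 to 46480000, held 1 peak from 46365678 to 46365981, with its summit 4.22 kb below the midpoint. Its height was 14 (7.65 to 23.5) and its fold was 7.02, and 91.8% of the list had a fold as large. The local background was 1.99 fragments. With 16 peaks in all within 2 Mb of either edge, or 4 per Mb, this was the densest neighbourhood of the 8. SYMPK and IRF2BP1 are the nearest protein-coding genes in RefSeq.

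**Figure D4:**
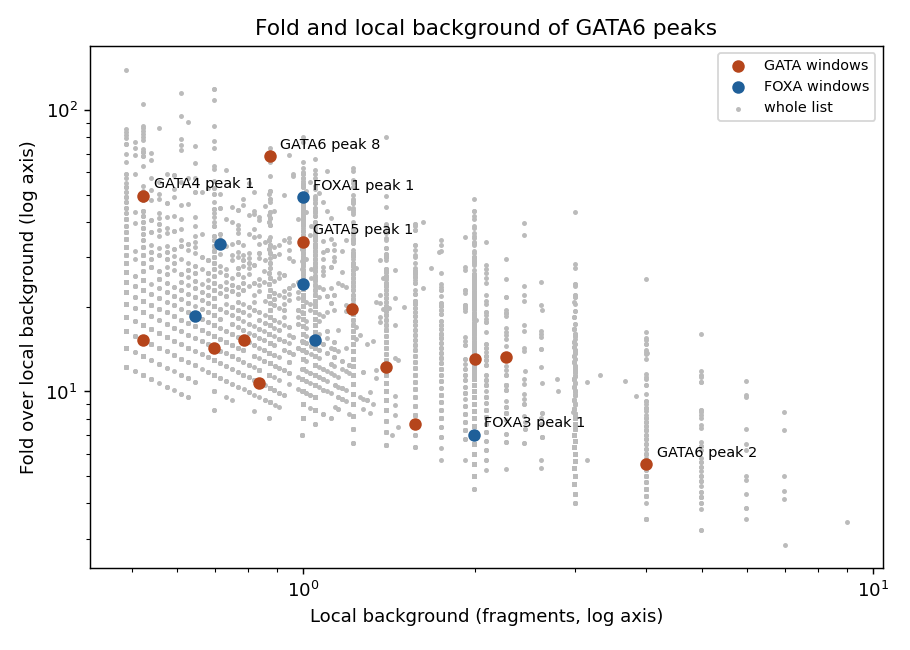
Each point is a GATA6 peak, with its local background in fragments on the x axis and its fold on the y axis, both on log axes. Red points are peaks of the GATA windows, blue points those of the FOXA windows and grey points the whole list; GATA6 peak 2, at a background of 3.99, has the lowest fold of the 19 (5.51), and GATA6 peak 8 the highest (68.73).

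The FOXA and GATA windows did not separate in their peak values. Peaks of the 3 FOXA windows had heights from 12 to 49 with a median of 20, and those of the 5 GATA windows had heights from 8 to 60 with a median of 22. Median folds were 21.3 in the FOXA windows and 14.3 in the GATA windows, with ranges of 7.02 to 49.1 and 5.51 to 68.7. Median local background was 0.998 fragments in both. These ranges overlapped throughout, and the difference was not tested. The median width was 289 bp over the 19 peaks and 251 bp over the rest of the list.

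Spacing among the 19 peaks was mixed. A summit within 10 kb was found for 4 of them (21.1%) and for 27.2% of the whole list. The 4 were the pair at GATA6 and a pair at FOXA2 whose summits were 9.56 kb apart. No 2 summits lay within 1 kb of each other. The single peaks at GATA5, GATA3, FOXA1 and FOXA3 had their nearest other summit 179 to 1630 kb away.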

How the data were processed

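ChIP-seq of LS174T cells was analysed from 1 deposited list of GATA6 peaks. CASAVA 1.8, BWA 0.5.9-r16 and hg19 are named in the submitters' processing notes. Which peak caller and control were used, and whether the 3 libraries were pooled, is not given in the sources used here. Per the file headers, the pileup, the fold enrichment, and −log10 p-values and q-values were deposited for each peak by the authors. The pileup was read here as the height, not scaled to depth. The fold enrichment was read as a linear ratio over a local background. Since all these values were made from the same fragments, they describe and rank peaks within the list.

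The local background was computed as height over fold. A peak belonged to a window if its summit lay in it. Windows of the same size, laid end to end over chromosomes 1 to 22 and X (6 peaks lay elsewhere), took the place of randomly drawn windows. Python 3.11.15, pandas 2.3.3 and scipy 1.17.1 were used, and counting was tested on simulated data. In windows with more than 6 peaks, the 6 highest were given in full. The members and lists were chosen with earlier results of these data known. RefSeq names and promoters are on GRCh38.p14, so hg19 gene positions, motifs under peaks and the other GATA and forkhead genes were not analysed here. Protein sequences were not used here. Alternatives were a stricter q-value, any overlap, joined summits, smaller windows and other layouts of the background.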

Additional observations from a re-analysis of the deposited data

How the results depend on the processing

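When peaks had to reach the list's median −log10 q of 9.24, the 8 windows held 11 peaks and the GATA6 window 5, the GATA4 window held 1, the GATA3 and FOXA3 windows lost their single peak, and 5 windows held a peak. With windows 0.5 times as large around the same midpoints, the 8 windows held 9 peaks, and 5 windows held a peak. The GATA6 window held 5, the FOXA2 window 1 and the GATA4 and GATA3 windows 0. By construction both settings count fewer peaks. Background windows of the smaller sizes were not laid, so these counts have no share beside them. The share of 500 kb windows with at least as many peaks as the GATA6 window was 0.671% over chromosome 18 alone (1 of 149 windows, 95% exact binomial interval 0.0170 to 3.68) and 0.933% with summits within 1 kb joined. The GATA6 locus was not left out of the background, so the 1 window on chromosome 18 may overlap it. With summits joined, the GATA6 window kept 8 peaks, while the windows with at least 8 numbered 54 in place of 77 of 5788. The interval over chromosome 18 includes 1.33%, so a change there was not resolved, and its cause was not tested. The median height of the members, 22 against 16 in the list, was 16 without the GATA6 window, so this median no longer exceeded the list's. Other measures of those 11 peaks were mixed. Their upper quartile of height was 25 against 23 in the list, and their median fold 18.6 against 14. Their lower quartile of height was 12, as in the list, and that of −log10 q was 4.91 against 5.81. The members' median height was 17 in the smaller windows (list median 16) and 26 with the stricter q (list median 22). Counting a peak by any base in the window or joining summits left each count of peaks in the member windows as it was. With the background windows shifted or the largest peak-free intervals left out, the GATA6 share was 1.33% and 1.41%, inside its interval of 1.05 to 1.66. At the stricter q the share, for at least 5 peaks, was 1.23% and also inside that interval. The background fell as well, with a peak in 37.5% of 500 kb windows at the stricter q, against 53.7% in the full list. No paired analysis was possible because the list holds no value per library, and for the same reason no library could be left out. Depth is unknown, and a low peak such as that of height 8 at GATA4 has a wide counting interval.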
